A study of Mus musculus with 8 samples.

Results

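The genes described here are 10 repressors and output genes of the circadian clock, Bhlhe40, Bhlhe41, Per1, Per2, Per3, Cry1, Cry2, Nr1d1, Nr1d2 and Dbp, out of 54532 genes with a value in each library. They were chosen by name with earlier results of these data known. Bhlhe41 entered because it was much lower in shMCT-1 cells, so its values in that contrast are given as a description without a test. All 10 passed the filter on low counts, as did 12704 genes in all. The cells were 4T1, a triple-negative breast cancer (TNBC) line from a mammary tumor of a BALB/c mouse. They carried a stable scramble shRNA (negative control) or an shRNA against MCT-1 (shMCT-1), and both lines were grown in medium with serum and puromycin. Each line was treated for 48 h with an antibody against the mouse IL-6 receptor (anti-IL6R) at 100 ng/ml or with IgG, which gave 4 groups of 2 libraries, scramble + IgG, scramble + anti-IL6R, shMCT-1 + IgG and shMCT-1 + anti-IL6R. How many transfected clones made up each line is not given in the sources used here, so the shRNA and any other difference between the lines cannot be told apart.

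The clock runs in nearly every mammalian cell as a feedback loop of transcription. CLOCK and BMAL1 (the product of Arntl) bind E-box sequences and switch on the Per and Cry genes, whose proteins return to the nucleus and repress them. The products of Bhlhe40 and Bhlhe41 (DEC1 and DEC2) compete for the same E-boxes, those of Nr1d1 and Nr1d2 (the REV-ERB nuclear receptors) repress Arntl, and Dbp encodes an activator that carries the rhythm to D-box genes. The clock is also coupled to the cell cycle and to the response to hypoxia and glucocorticoids, and cultured cells drift out of phase with each other. Each group was harvested at a single time and the phase of the cells was not recorded in the sources used here, so a change of level and a shift of phase cannot be told apart.

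The stretches shown hold an E-box, E'-box or D-box, the elements through which the repressors and Dbp are known to act. RefSeq promoters (GRCm38.p6, 250 bases before to 50 after the start) were found for 8 of the 10 genes, all but Bhlhe40 and Per2. The bases upstream of the start and outside any annotated exon of the gene are printed 5′ to 3′, with matches on either strand in capitals.
Bhlhe41, chr6:145865559-145865670, minus strand: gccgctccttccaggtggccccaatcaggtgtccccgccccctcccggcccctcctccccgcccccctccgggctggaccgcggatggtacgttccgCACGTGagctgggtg
Per1, chr11:69098699-69098947, plus strand: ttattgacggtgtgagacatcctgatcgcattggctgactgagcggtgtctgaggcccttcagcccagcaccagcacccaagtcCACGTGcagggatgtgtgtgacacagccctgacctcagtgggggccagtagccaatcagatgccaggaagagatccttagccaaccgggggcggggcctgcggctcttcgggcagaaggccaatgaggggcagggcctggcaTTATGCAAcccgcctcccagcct
Per3, chr4:151044666-151044915, minus strand: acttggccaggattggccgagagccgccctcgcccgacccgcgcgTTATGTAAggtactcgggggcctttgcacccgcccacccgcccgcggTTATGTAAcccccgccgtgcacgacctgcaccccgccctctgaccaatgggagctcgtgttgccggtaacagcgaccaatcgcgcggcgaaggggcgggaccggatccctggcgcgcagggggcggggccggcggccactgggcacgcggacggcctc
Cry2, chr2:92434070-92434319, minus strand: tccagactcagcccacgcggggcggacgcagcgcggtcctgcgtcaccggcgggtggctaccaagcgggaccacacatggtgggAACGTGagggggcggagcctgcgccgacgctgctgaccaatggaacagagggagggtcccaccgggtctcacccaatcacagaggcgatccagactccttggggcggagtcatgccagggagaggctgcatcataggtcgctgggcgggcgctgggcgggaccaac
Cry1, chr10:85185065-85185304, minus strand: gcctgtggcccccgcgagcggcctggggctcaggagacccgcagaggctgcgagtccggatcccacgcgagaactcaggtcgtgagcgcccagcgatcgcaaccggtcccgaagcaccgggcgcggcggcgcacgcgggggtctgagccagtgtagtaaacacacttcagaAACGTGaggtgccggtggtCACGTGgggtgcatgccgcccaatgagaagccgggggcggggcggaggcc
In these stretches the capitals mark an E-box (CACGTG) in Bhlhe41, Per1 and Cry1, a D-box (TTATGNAA) in Per1 and 2 D-boxes in Per3, and an E'-box (CACGTT, read on the other strand as AACGTG) in Cry2 and Cry1. Among 32851 promoters of the same length, 7.15% held the E-box, 4.68% the E'-box and 3.38% the D-box. The element bound by REV-ERB and ROR receptors (TAGGTCA, in 2.61% of promoters) and the cyclic AMP element (TGACGTCA, in 1.79%) were in none of the 8 genes, Nr1d1 held an E'-box, and Nr1d2 and Dbp held none of the 5 motifs in this window.

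Library totals lay between 19839255 and 33063535 counts, and every shMCT-1 library (at most 23448547 counts) was smaller than every scramble library (at least 24100056 counts). Levels are given in CPM (counts scaled to a common library total of 1000000), so that 1 CPM was 19.8 to 33.1 counts, depending on the library. Mcts1, the gene of MCT-1, lay at 11.8 to 15.4 CPM in the scramble libraries and at 4.92 to 6.70 CPM in the shMCT-1 libraries, a log2 fold change of -1.08 ± 0.17 (SE, adjusted p = 0.000676) within IgG and -1.13 ± 0.17 (adjusted p = 0.000557) within anti-IL6R. The epithelial markers Krt8, Krt18, Epcam and Cdh1 together gave 1972 to 2113 CPM in scramble and 2484 to 2683 CPM in shMCT-1 cells, with Epcam at 3.75 to 4.93 and 49.4 to 54.5 CPM. Of the receptor genes that define TNBC by their absence, Pgr was at 0 in all 8 libraries and Esr1 was low, so that both together reached 4.62 CPM at most. Esr1 was called higher in shMCT-1 cells within IgG (log2 fold change 0.70, adjusted p = 0.0135) but not within anti-IL6R (0.46, adjusted p = 0.0684). The gene of HER2, whose absence also defines TNBC, was not among the markers read. The 8 leukocyte, endothelial and fibroblast markers summed to 17.8 to 19.6 CPM in scramble and 18.9 to 22.4 CPM in shMCT-1 cells, and Adgre1 and Cd3e were at 0 throughout. Of the 3 tested in that list, Pdgfra, at 10.9 to 16.7 CPM the bulk of the sum, was not called, while Cd68, a macrophage marker, and Cdh5, an endothelial marker, were called higher in shMCT-1 cells in both comparisons. Cd68 lay at 2.66 to 3.34 CPM in scramble and 5.42 to 7.51 CPM in shMCT-1 libraries, and Cdh5 at 0 to 0.124 and 0.454 to 1.46 CPM. Other markers of the list overlapped between the lines and did not pass the filter on low counts. Ptprc, a leukocyte marker, lay at 0.060 to 0.124 CPM in scramble and 0 to 0.137 CPM in shMCT-1 libraries. Pecam1, an endothelial marker, lay at 0.096 to 0.182 and 0.050 to 0.458 CPM. Cd68 and Cdh5 moved with the shMCT-1 comparison, and their part in the differences of the clock genes was not tested. In these bulk samples, fewer cells of a type and less RNA per cell cannot be told apart.

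In shMCT-1 cells Bhlhe41 was far lower, Bhlhe40 was higher, and Per1, Per2, Per3, Cry2 and Nr1d2 were lower than in scramble cells, while Cry1, Nr1d1 and Dbp did not pass the test. The 9 genes other than Bhlhe41 gave the same count under IgG and under anti-IL6R, which share no library, with 1 higher, 5 lower and 3 not called at an adjusted p under 0.05. Both comparisons use the same lines and a common fit with a shared estimate of the spread, so the match is not an independent repeat. Across all tested genes 54.4% were called within IgG (28.3% higher and 26.2% lower) and 54.3% within anti-IL6R (26.9% higher and 27.3% lower). At an unadjusted p under 0.05 the count among the 9 genes was again 6 in each comparison, against 60.2% and 60.3% of all genes. The median log2 fold change of the 9 genes was -0.48 within IgG and -0.52 within anti-IL6R, against 0.01 in both comparisons over all tested genes. The 4 shMCT-1 libraries lay wholly above or wholly below the 4 scramble libraries for 64.1% of all tested genes (29.9% above and 34.2% below), and for 6 of the 9 genes other than Bhlhe41. The count of 6 calls among the 9 genes fell to 3 without shMCT-1 + IgG replicate 2 (within IgG) and to 3 without scramble + anti-IL6R replicate 2 (within anti-IL6R). These 6 were Bhlhe40, which lay above, and Per1, Per2, Per3, Cry2 and Nr1d2, which lay below. Bhlhe41, chosen for its fall in this comparison, also lay below.

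**Figure D1:**
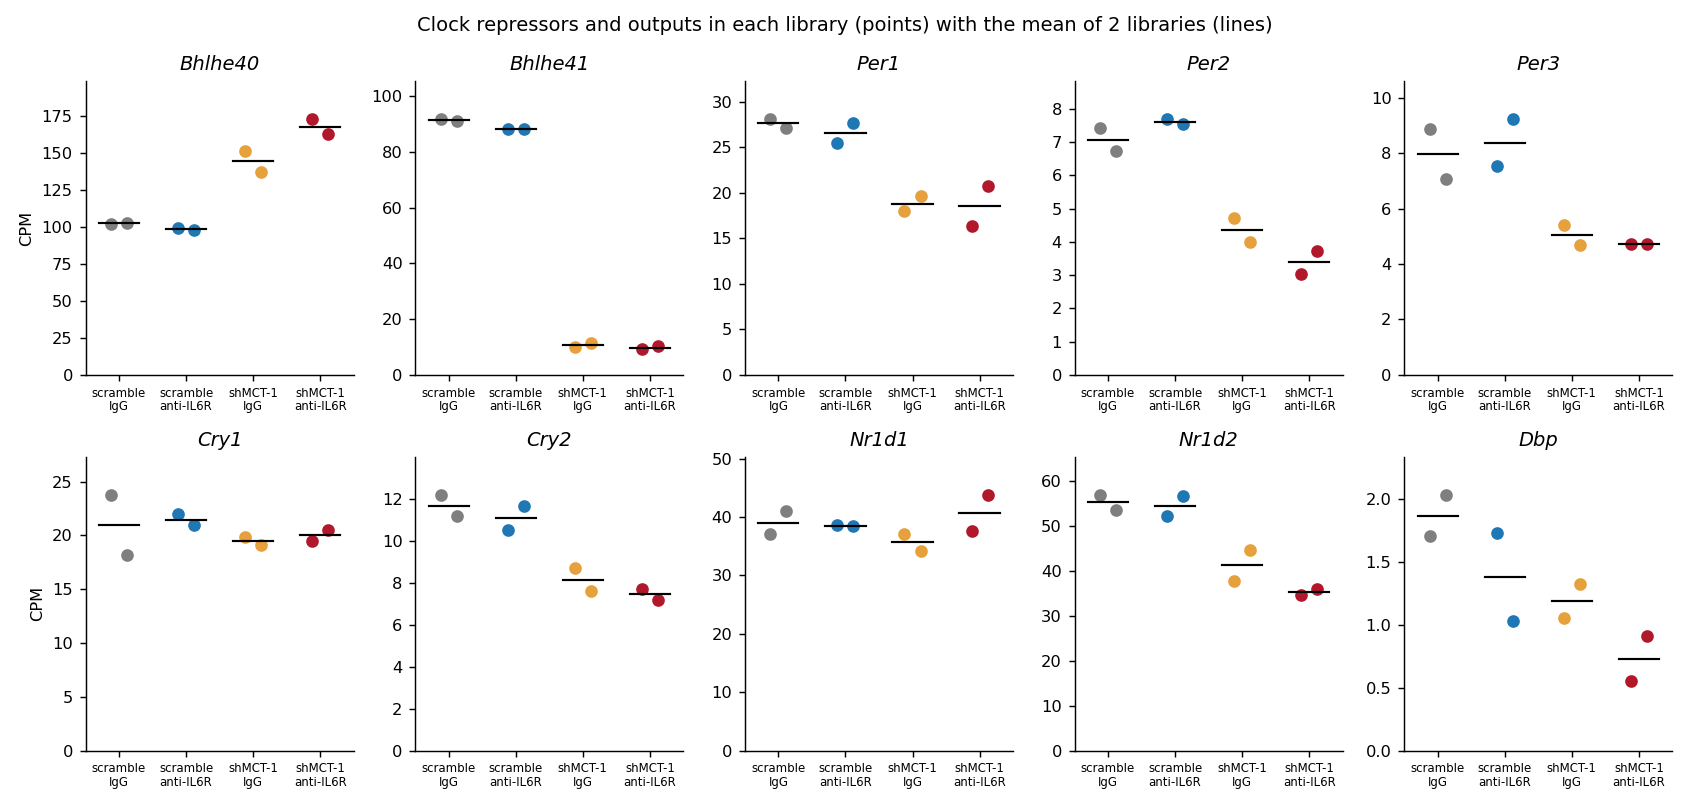
Level in CPM (vertical axis, from 0, with its own range for each gene) of the 10 genes in the 4 groups, with a point for each library and a line at the mean of the 2 libraries of a group. Bhlhe41 sits at 88.1 to 91.7 CPM in the scramble libraries and at 9.22 to 11.6 CPM in the shMCT-1 libraries, while Cry1 and Nr1d1 overlap between the lines.

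Bhlhe41 and Bhlhe40 encode closely related basic helix-loop-helix repressors, and the pair moved in opposite directions. Bhlhe41 stood at 91.7 and 91.2 CPM in scramble + IgG, 88.1 and 88.3 CPM in scramble + anti-IL6R, 10.1 and 11.6 CPM in shMCT-1 + IgG, and 9.22 and 10.3 CPM in shMCT-1 + anti-IL6R. No shMCT-1 library came near a scramble library, and the values rested on 183 to 271 counts in shMCT-1 cells and 2198 to 2920 counts in scramble cells. The log2 fold change was -3.04 ± 0.10 (SE) within IgG and -3.11 ± 0.10 within anti-IL6R, or 8.20-fold and 8.66-fold lower, and 95 and 110 of the 12704 tested genes had a larger fall.

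Bhlhe40, whose product is induced by hypoxia and by many growth signals, stood at 102 and 103 CPM in scramble + IgG, 99.6 and 98.1 CPM in scramble + anti-IL6R, 152 and 137 CPM in shMCT-1 + IgG, and 173 and 163 CPM in shMCT-1 + anti-IL6R. Every shMCT-1 library was above every scramble library. It rose by a log2 fold change of 0.54 ± 0.08 (SE, adjusted p = 0.000633) within IgG and 0.82 ± 0.09 (adjusted p = 5.95e-05) within anti-IL6R, or 1.45-fold and 1.77-fold. Per kilobase of exon, Bhlhe40 exceeded Bhlhe41 by 1.59 to 1.62 times in the 4 scramble libraries and by 17.0 to 26.8 times in the 4 shMCT-1 libraries. These ratios rest on the union of exons, of 4705 bases for Bhlhe40 and 6720 for Bhlhe41. Scaled by the longest transcripts, of 3113 and 6133 bases, they would be larger in both lines. The summed level of the pair was 186 to 194 CPM in scramble and 149 to 182 CPM in shMCT-1 cells.

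All 3 Per genes, which encode the PERIOD repressors, were lower in shMCT-1 cells. Per1, the most abundant of them per length, stood at 28.0 and 27.1 CPM in scramble + IgG, 25.4 and 27.6 CPM in scramble + anti-IL6R, 18.0 and 19.6 CPM in shMCT-1 + IgG, and 16.4 and 20.7 CPM in shMCT-1 + anti-IL6R. Its lines did not overlap, and it fell by 0.51 ± 0.12 on the log2 scale (adjusted p = 0.00515) within IgG and by 0.46 ± 0.12 (adjusted p = 0.0089) within anti-IL6R. The second of these calls was lost without scramble + anti-IL6R replicate 2 (adjusted p = 0.0742) or without shMCT-1 + anti-IL6R replicate 1 (log2 fold change -0.29, adjusted p = 0.0558).

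Per2, a PERIOD gene needed for a stable rhythm, stood at 7.41 and 6.72 CPM in scramble + IgG, 7.68 and 7.53 CPM in scramble + anti-IL6R, 4.71 and 4.01 CPM in shMCT-1 + IgG, and 3.02 and 3.73 CPM in shMCT-1 + anti-IL6R. Both shMCT-1 + anti-IL6R libraries were the lowest of all 8. It fell by 0.66 ± 0.17 on the log2 scale (adjusted p = 0.00948) within IgG and by 1.11 ± 0.18 (adjusted p = 0.000639) within anti-IL6R, or 1.57-fold and 2.16-fold, and the former call was lost without shMCT-1 + IgG replicate 2 (adjusted p = 0.0729).

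Per3, the PERIOD gene with the least essential part in the core loop, stood at 8.86 and 7.05 CPM in scramble + IgG, 7.55 and 9.22 CPM in scramble + anti-IL6R, 5.40 and 4.69 CPM in shMCT-1 + IgG, and 4.74 and 4.73 CPM in shMCT-1 + anti-IL6R. The lines did not overlap, although the scramble libraries were spread widely. It fell by 0.62 ± 0.18 on the log2 scale (adjusted p = 0.0142) within IgG and by 0.77 ± 0.18 (adjusted p = 0.00487) within anti-IL6R. The call within IgG was lost without scramble + IgG replicate 1 (adjusted p = 0.0834) or shMCT-1 + IgG replicate 2 (adjusted p = 0.097), and that within anti-IL6R without scramble + anti-IL6R replicate 2 (adjusted p = 0.0568).

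Of the 2 cryptochrome genes, whose products are the main repressors of CLOCK and BMAL1, Cry2 passed the test and Cry1 did not. Cry2 stood at 12.2 and 11.2 CPM in scramble + IgG, 10.5 and 11.6 CPM in scramble + anti-IL6R, 8.70 and 7.59 CPM in shMCT-1 + IgG, and 7.71 and 7.19 CPM in shMCT-1 + anti-IL6R. It was lower in every shMCT-1 library and fell by 0.48 ± 0.13 on the log2 scale (adjusted p = 0.0119) within IgG and by 0.52 ± 0.13 (adjusted p = 0.00839) within anti-IL6R. These calls were lost without shMCT-1 + IgG replicate 2 (adjusted p = 0.0994) and without scramble + anti-IL6R replicate 2 (adjusted p = 0.0753). Cry2 is on chromosome 2, whose 1000 tested genes had a median log2 fold change of -0.36 in both comparisons, and the part of that shift in the fall of Cry2 was not tested.

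Cry1 stood at 23.8 and 18.2 CPM in scramble + IgG, 22.0 and 20.9 CPM in scramble + anti-IL6R, 19.9 and 19.1 CPM in shMCT-1 + IgG, and 19.5 and 20.5 CPM in shMCT-1 + anti-IL6R. All 4 shMCT-1 libraries lay inside the range of the scramble libraries. The log2 fold change was -0.06 within IgG (95% interval -0.34 to 0.21, adjusted p = 0.689) and -0.04 within anti-IL6R (95% interval -0.32 to 0.23, adjusted p = 0.776). The difference between the 2 cryptochrome genes was not itself tested.

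Of the REV-ERB genes, Nr1d2 was called in both comparisons and Nr1d1 in neither, a difference that was not itself tested and that turned round within IgG after the correction for transcript length and GC content. Nr1d2 (REV-ERBβ) stood at 56.9 and 53.6 CPM in scramble + IgG, 52.3 and 56.6 CPM in scramble + anti-IL6R, 37.8 and 44.7 CPM in shMCT-1 + IgG, and 34.6 and 35.9 CPM in shMCT-1 + anti-IL6R. Every shMCT-1 library was below every scramble library, and the fall was 0.38 ± 0.10 on the log2 scale (adjusted p = 0.00928) within IgG and 0.57 ± 0.10 (adjusted p = 0.00113) within anti-IL6R. The call within IgG was lost without shMCT-1 + IgG replicate 1 (log2 fold change -0.26, adjusted p = 0.0936).

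Nr1d1 (REV-ERBα) stood at 37.1 and 41.0 CPM in scramble + IgG, 38.6 and 38.5 CPM in scramble + anti-IL6R, 37.1 and 34.2 CPM in shMCT-1 + IgG, and 37.6 and 43.8 CPM in shMCT-1 + anti-IL6R. The lines overlapped, with a log2 fold change of -0.09 within IgG (95% interval -0.32 to 0.14, adjusted p = 0.5) and 0.14 within anti-IL6R (95% interval -0.09 to 0.36, adjusted p = 0.286). It shares 263 exonic bases with Thra, a thyroid hormone receptor gene on the opposite strand at 19.8 to 21 CPM in scramble and 25.9 to 28.1 CPM in shMCT-1 cells. Whether counting used the strand is not given in the sources used here, so reads in that stretch may belong to either gene.

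Dbp, the activator of D-box genes, was scarce. It stood at 1.71 and 2.03 CPM in scramble + IgG, 1.73 and 1.03 CPM in scramble + anti-IL6R, 1.05 and 1.32 CPM in shMCT-1 + IgG, and 0.55 and 0.91 CPM in shMCT-1 + anti-IL6R, or 11 to 54 counts per library. The lines overlapped. The log2 fold change was -0.61 within IgG (95% interval -1.42 to 0.21, adjusted p = 0.183) and -0.84 within anti-IL6R (95% interval -1.72 to 0.05, adjusted p = 0.098), and neither passed the test. The value within anti-IL6R turned on single libraries, at -0.42 without scramble + anti-IL6R replicate 1, -0.53 without shMCT-1 + anti-IL6R replicate 1 and -1.23 without shMCT-1 + anti-IL6R replicate 2. With every library thinned to the smallest total it was -1.24 and was called (adjusted p = 0.0238). Dbp shares 539 exonic bases with Sphk2, on the opposite strand at 31.0 to 39.8 CPM, and the same limit of strand holds.

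Levels of different genes can be compared only per length. In CPM per kilobase of exon, the order of mean levels in scramble cells was Bhlhe40 at 21.4, Bhlhe41 at 13.4, Nr1d1 at 12.6, Nr1d2 at 10.1, Cry1 at 6.35, Per1 at 4.81, Cry2 at 1.80, Per2 at 1.25, Per3 at 0.851 and Dbp at 0.543. Among these neighbours the libraries of Bhlhe41 and Nr1d1 alone overlapped. In shMCT-1 cells Bhlhe40 at 33.2 was followed by Nr1d1 at 12.4, Nr1d2 at 7.07, Cry1 at 5.92, Per1 at 3.32, Bhlhe41 at 1.53, Cry2 at 1.23, Per2 at 0.661, Per3 at 0.509 and Dbp at 0.321. Bhlhe41 thus lay next to Cry2, and its lowest library (1.37) was just under the highest of Cry2 (1.38). The libraries of Per2 and Per3 overlapped as well, and those of the other neighbours did not. These orders rest on the union of exons, which for Per3 has 9608 bases against 5999 in its longest transcript. For Per2 the lengths are 5856 and 5833 bases. Scaled by the longest transcript, the mean of Per3 would lie above that of Per2 in both lines, and that of Cry2 above Bhlhe41 in shMCT-1 cells.

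Transcript length moved with the shMCT-1 comparison over the whole table, and 5 of the genes are long. Within IgG the median log2 fold change fell from 0.43 in the 1007 tested genes with transcripts up to 1000 bases to -0.52 in the 1028 genes above 7000 bases. Bhlhe41, Per1, Per2, Per3 and Nr1d2 have longest transcripts of 4663 to 6133 bases, and of the 2395 genes with 4500 to 7000 bases, 39.4% were lower within IgG and 39.6% within anti-IL6R. With a correction of each library for length and GC content, added after seeing the data, Per1, Per2, Per3 and Cry2 remained called, with log2 fold changes of -0.65, -0.66, -0.55 and -0.62 within IgG and -0.55, -1.06, -0.65 and -0.61 within anti-IL6R. Bhlhe40 stayed called at 0.50 and 0.83, and Bhlhe41 stood at -2.84 and -2.88. Nr1d2 lost its call within IgG (-0.14, adjusted p = 0.206) and kept it within anti-IL6R (-0.30, adjusted p = 0.0167), and Nr1d1 gained one within IgG (-0.33, adjusted p = 0.036) and turned to -0.04 within anti-IL6R.

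**Figure D2:**
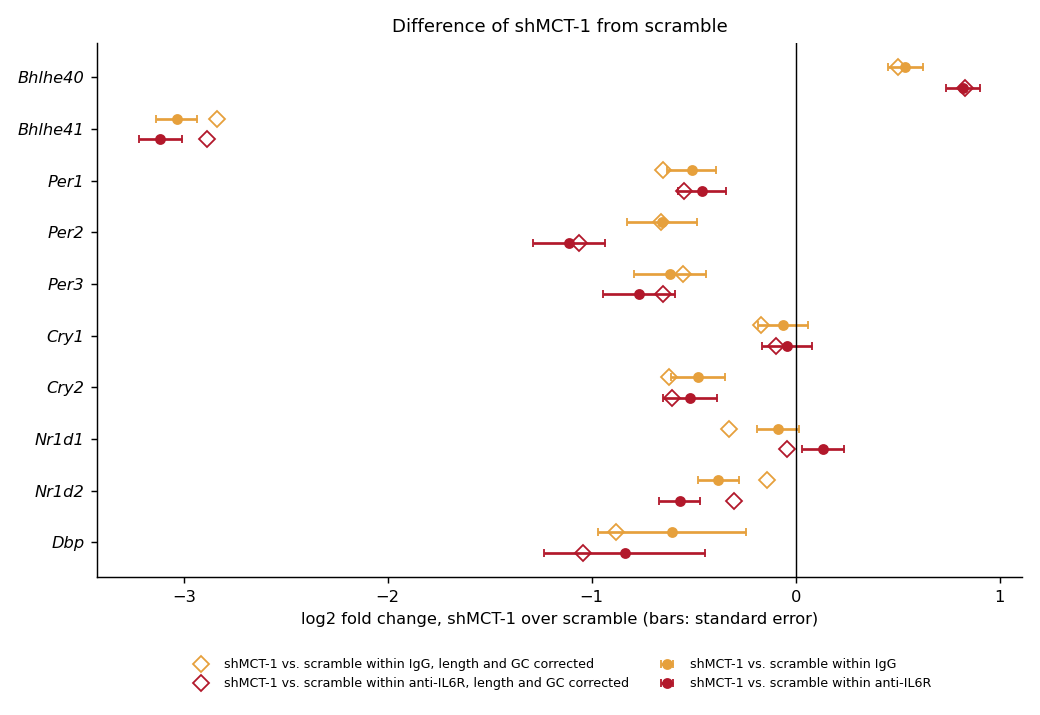
log2 fold change of shMCT-1 over scramble (horizontal axis) for the 10 genes, with filled points for the fit without correction, bars for its standard error, and open diamonds for the values corrected for transcript length and GC content, within IgG (orange) and within anti-IL6R (red). Bhlhe40 lies right of 0 at 0.54 and 0.82, Bhlhe41 lies near -3.04 and -3.11, and the diamonds of Nr1d2 lie closer to 0 than its points.

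Bhlhe41 lies on chromosome 6 (145858243 to 145865558, minus strand, GRCm38), and its neighbours were lower as well. Of the 15 tested genes with midpoints within 1 Mb of its start, none was called higher, 10 were called lower within IgG and 12 within anti-IL6R. Of all tested genes, 26.2% and 27.3% were called lower. The 15 include Gm43909, which shares exonic bases with Bhlhe41. The median log2 fold change of the 15 was -0.71 and -0.85, against 0.05 and 0.03 for the 615 tested genes of the chromosome. Apart from predicted genes, the largest falls beside Bhlhe41 were those of Itpr2, a calcium channel of the endoplasmic reticulum, at -1.95 and -2.15, and of Rassf8, a Ras association domain gene, at -1.09 and -1.16. Arntl2, which encodes BMAL2 and thus a clock activator, lies 949 kb away in the same window, at -0.47 and -0.88. Gm43909, a gene of unclassified type on the opposite strand that shares 1280 exonic bases with Bhlhe41, stood at -4.00 and -3.69 on the log2 scale. Whether counting used the strand is not given, so reads in the shared bases may belong to either gene. Farther out, genes were called lower in both comparisons as well, such as C2cd5 at -2810 kb (-0.98 and -1.195) and Ipo8 at 2935.5 kb (-0.71 and -0.76). So were Etnk1, Ppfibp1, Klhl42, Ergic2, 4732416N19Rik and 2610017A05Rik. Pthlh, the gene of the parathyroid hormone-related protein at 1393 kb, was the only one called higher in both, at 1.52 and 2.05. Mrps35 was called higher within IgG (0.39). The part of this shared shift in the level of Bhlhe41 was not tested.

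Around the other genes that were lower, the neighbours had a median below 0 for Cry2 only. The tested genes within 1 Mb had a median log2 fold change within IgG of 0.36 around Per1, 0.21 around Per2, 0.09 around Per3 and 0.45 around Nr1d2, against -0.42 around Cry2. Within anti-IL6R these medians were 0.42, 0.20, 0.07, 0.37 and -0.45.

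**Figure D3:**
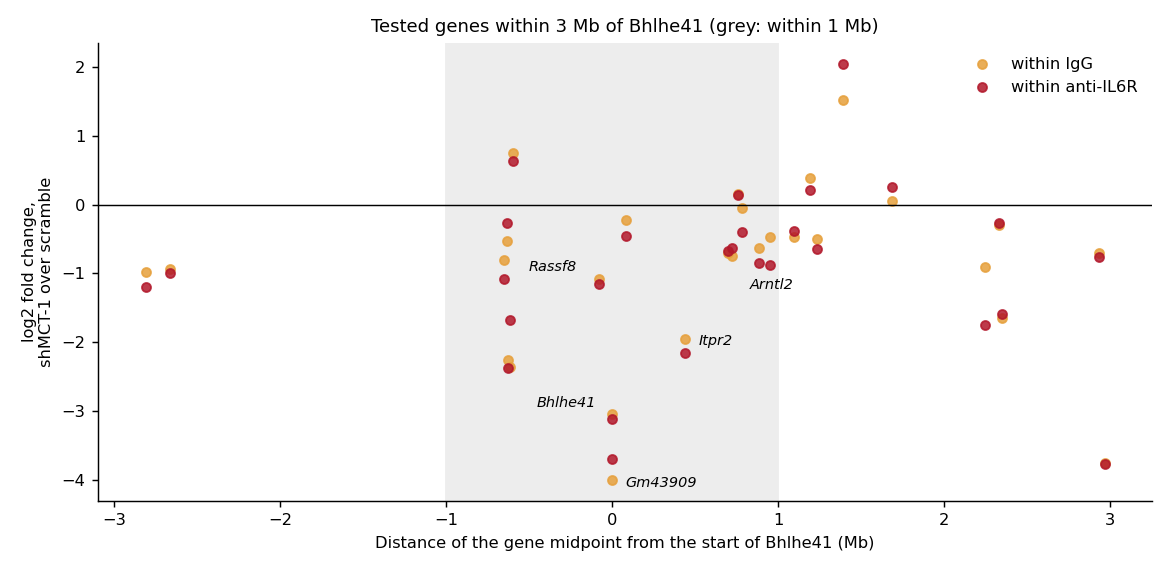
log2 fold change of shMCT-1 over scramble (vertical axis) of tested genes against the distance of their midpoint from the start of Bhlhe41 in Mb (horizontal axis), within IgG (orange) and within anti-IL6R (red), with the window of 1 Mb to either side in grey. Most genes in the window lie below 0, Itpr2 at -1.95 and -2.15. Most genes outside it lie below 0 too, while Pthlh lies at 1.52 and 2.05.

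The wider clock was read from 36 further genes listed by role, of which 30 were tested. Within IgG 4 were higher, 11 were lower and 15 were not called, and within anti-IL6R 5 were higher, 11 were lower and 14 were not called. Over all tested genes 54.4% and 54.3% were called, with 26.2% and 27.3% lower. With the correction for transcript length and GC content, 12 of the 30 were called within IgG. Of the 1028 tested genes above 7000 bases, 63.4% were lower within IgG and 65.8% within anti-IL6R. Which of the 30 genes lost or gained a call with this correction is not given here. The part of transcript length in the fall of any single gene, such as Clock, was not tested. Of the activators that the repressors act on, Clock stood at 92.0 to 99.4 CPM in scramble and 30.1 to 43.6 CPM in shMCT-1 libraries, with no overlap. It fell by 1.29 ± 0.14 on the log2 scale within IgG (adjusted p = 9.01e-05) and by 1.31 ± 0.14 within anti-IL6R (adjusted p = 7.73e-05). Its partner Arntl, the target of the REV-ERB receptors, stood at 14.4 to 16.5 CPM in scramble and 15.3 to 16.4 CPM in shMCT-1 libraries, with log2 fold changes of 0.01 (95% interval -0.23 to 0.25) and 0.06 (95% interval -0.18 to 0.29). Npas2, which can stand in for Clock, was at 0 to 0.09 CPM and was not tested. Arntl2 was called within anti-IL6R (-0.88, adjusted p = 0.00382) but not within IgG (-0.47, adjusted p = 0.0614).

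Among 6 E-box output genes, Usp2, which encodes a deubiquitinase, lay at 0.871 to 1.48 CPM in scramble and 2.26 to 3.53 CPM in shMCT-1 libraries and rose by 1.48 (adjusted p = 0.003) and 1.40 (adjusted p = 0.00285) on the log2 scale. Ciart, a further repressor of CLOCK and BMAL1, rose by 0.36 and 0.44, and Tef, a relative of Dbp, fell (-0.29 and -0.45). Nampt, an enzyme of NAD synthesis, was called within IgG (-0.36), and Wee1, a kinase that holds back mitosis, within anti-IL6R (-0.34). Called outputs thus lay in both directions, with 2 higher and 2 lower in each comparison. Of all tested genes, 28.3% were higher and 26.2% lower within IgG, and 26.9% and 27.3% within anti-IL6R.

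Of 7 tested kinases and ubiquitin ligases that set the life of PER and CRY proteins, Csnk1d rose by 0.24 and 0.23 on the log2 scale, Gsk3b fell (-0.45 and -0.53), and 5 were not called in either comparison. Of 6 partners of the repressor complexes, which include Ciart, Ncor1, the corepressor that REV-ERB recruits, fell (-0.94 and -0.82), Sfpq was called within IgG (-0.43) and Nono within anti-IL6R (0.28). Of 8 tested genes of inputs to the clock, 5 fell in both comparisons, Nr3c1, the glucocorticoid receptor (-1.12 and -1.13), Hif1a, the hypoxia factor (-0.88 and -0.83), Klf9 (-0.82 and -0.89), Arnt (-0.45 and -0.51) and Creb1 (-0.42 and -0.35). Fkbp5, a target of the glucocorticoid receptor, rose by 0.61 and 0.65. These counts by role stand against 26.2% lower and 28.3% higher of all tested genes within IgG. Within anti-IL6R the shares were 27.3% and 26.9%.

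**Figure D4:**
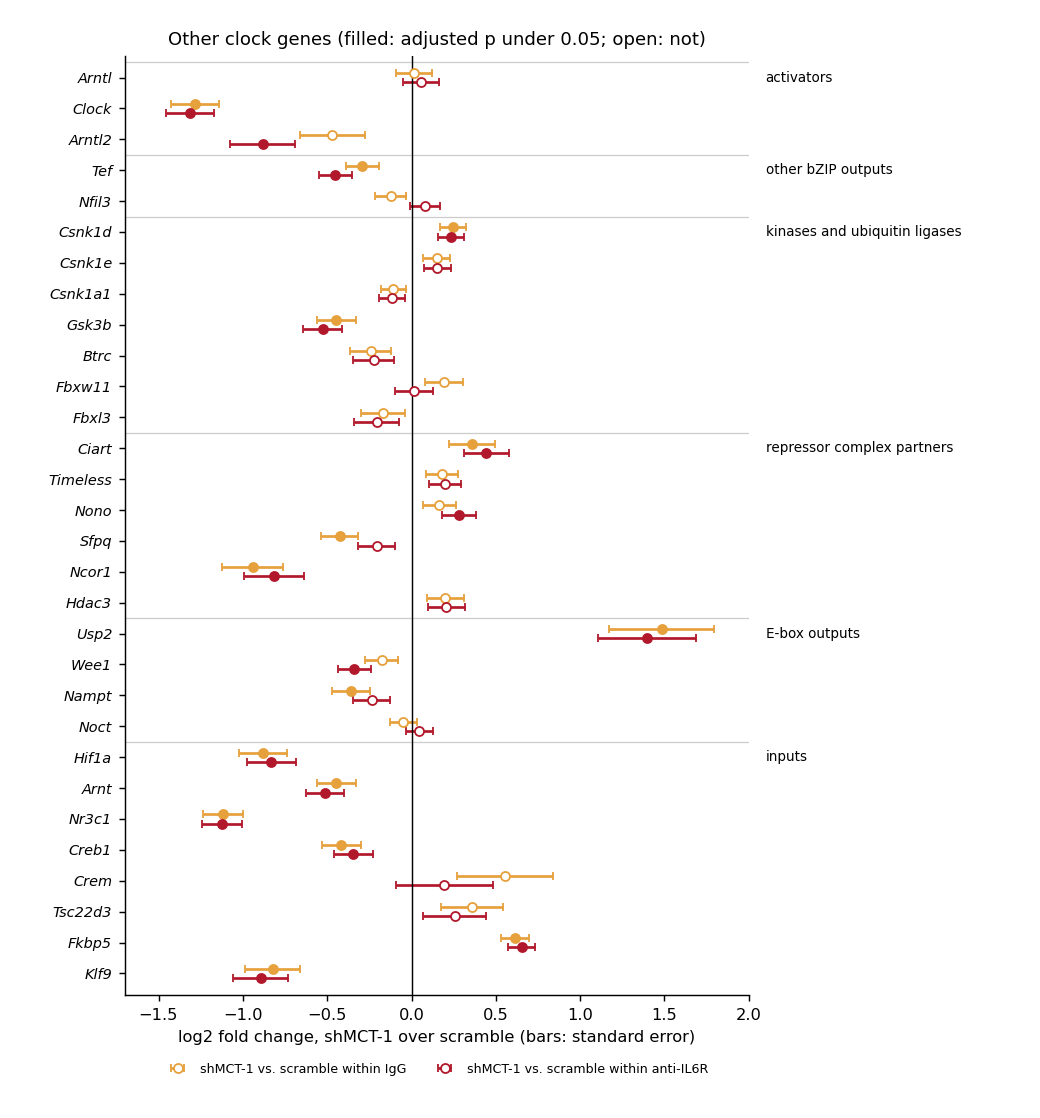
log2 fold change of shMCT-1 over scramble (horizontal axis, bars for the standard error) of the 30 tested further clock genes, grouped by role from top to bottom, within IgG (orange) and within anti-IL6R (red), with filled points for an adjusted p under 0.05. Clock lies at -1.29 and -1.31 while Arntl lies at 0.01 and 0.06, and Usp2 lies to the right.

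Anti-IL6R, given to learn what blocking the IL-6 receptor does in each line, changed none of the 10 genes at an adjusted p under 0.05, in scramble cells, in shMCT-1 cells or in the test of the difference between them. By edgeR's quasi-likelihood test the share of all tested genes called was 0% in each of the 3 comparisons, and 166 genes (1.31%) in scramble cells, 505 (3.98%) in shMCT-1 cells and 315 (2.48%) in the interaction had an unadjusted p under 0.05. DESeq2 called 0, 11 and 6 of all genes, and edgeR's exact test 10 in scramble and 14 in shMCT-1 cells. Of the 10 genes, 0 had an unadjusted p under 0.05 in scramble cells and 1, Bhlhe40, in shMCT-1 cells and in the interaction.

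In scramble cells the log2 fold changes of the 10 genes under anti-IL6R ran from -0.45 for Dbp to 0.10 for Per2. For Bhlhe41 the value was -0.06 (95% interval -0.26 to 0.14). In shMCT-1 cells they ran from -0.68 for Dbp to 0.22 for Bhlhe40, with Bhlhe41 at -0.14 (95% interval -0.39 to 0.11). Bhlhe40 was higher in both shMCT-1 + anti-IL6R libraries than in both shMCT-1 + IgG libraries (0.22 ± 0.08, unadjusted p = 0.0254, adjusted p = 0.9999). Its interaction term was 0.28 ± 0.12 (unadjusted p = 0.0398, adjusted p = 0.9999). Per2 was lower in both shMCT-1 + anti-IL6R libraries than in both shMCT-1 + IgG libraries (-0.36 ± 0.19, unadjusted p = 0.0838) and Nr1d2 likewise (-0.22 ± 0.10, unadjusted p = 0.0552), and neither passed the correction. Without shMCT-1 + anti-IL6R replicate 1 the value of Per2 was -0.21, and without shMCT-1 + IgG replicate 2 that of Nr1d2 was -0.09.

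**Figure D5:**
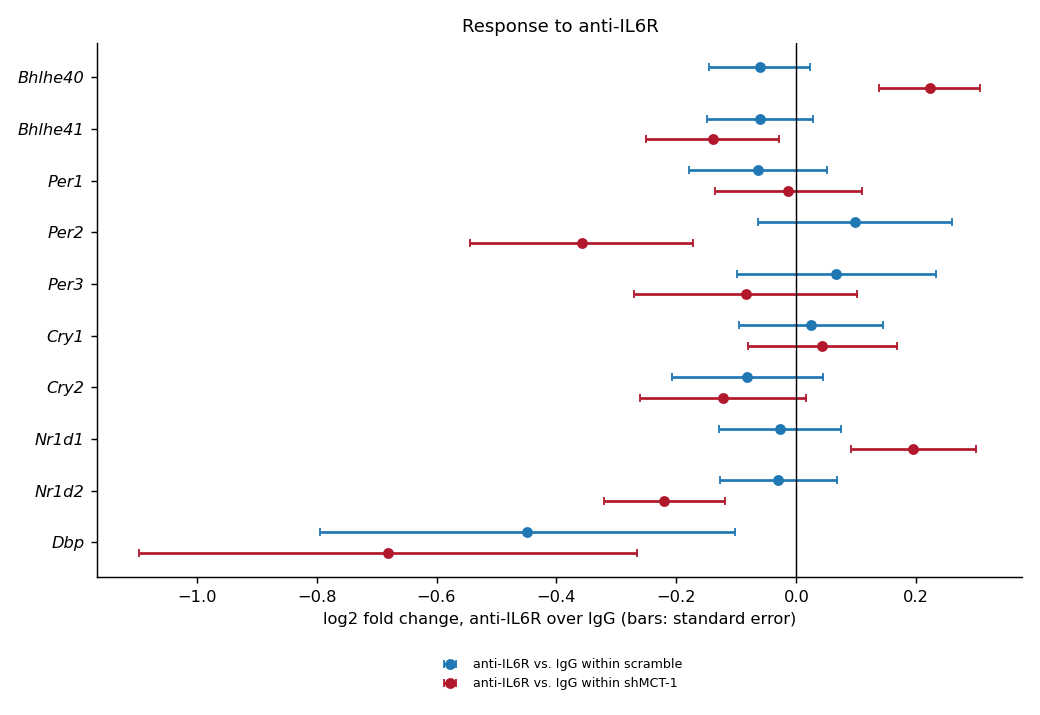
log2 fold change of anti-IL6R over IgG (horizontal axis, bars for the standard error) for the 10 genes in scramble (blue) and shMCT-1 (red) cells. No gene passed the test in either line, and Bhlhe40 lies at -0.06 in scramble and 0.22 in shMCT-1 cells.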

How the data were processed

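RNA of 4T1 cells was sequenced in 8 libraries, 2 in each of 4 groups that were taken with their replicate numbers from the sample labels. The design text calls the 2 libraries of a group independent biological replicates. The authors trimmed reads with cutadapt 1.18 (reads under 20 bp removed), aligned them to mm10 with STAR 2.7.0d, counted them with RSEM on GENCODE release 19 for mouse, and deposited expected counts per gene, not normalized for depth or length. Fractional estimates made up 29.6% of the nonzero values, and each was rounded to a whole number here. Identifiers were matched without version to GENCODE M21 on GRCm38 (54409 of 54532), the source of coordinates, and lengths are those of the union of exons (levels) or of the longest transcript (length classes).

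Genes above 1 CPM in at least 2 of 8 libraries were fitted as 4 group means in edgeR 4.0.16 under R 4.3.3, with TMM library sizes and the quasi-likelihood test. The exact test of the study's methods was an alternative. Benjamini-Hochberg adjustment ran over all 12704 tested genes, with a call at an adjusted p under 0.05. Standard errors and 95% intervals come from the log2 fold change and F statistic of the same test. In simulated data on these 12704 genes for shMCT-1 within IgG, 43%, 82.5% and 95.5% of 200 genes changed 1.5-, 2- and 4-fold were recovered, with 10, 9 and 11 unchanged genes called. In the data 54.4% of genes were called in this comparison, far more than the 200 changed here. The adjustment then sets another cutoff, so these rates do not carry over to the reported calls.

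The members and gene lists were chosen with earlier results of these data known. A clock gene and a marker of the lists are not reported here. The named genes were the 10 members, Mcts1, the listed clock genes called in either shMCT-1 comparison, the activators Arntl, Clock and Npas2, and for Bhlhe41 and Dbp the 5 genes of most similar profile. Neighbours and overlapping genes, and the markers Epcam, Esr1, Cd68, Cdh5, Pdgfra, Ptprc and Pecam1, were named after their values were seen. Alternatives were DESeq2 1.42.0, the exact test, RLE size factors, 3 other filters, thinning, the replicate number as a block, an unadjusted p, leaving out each library and, added after seeing the data, a loess correction for length and GC content (span 0.3) and totals without mitochondrial genes. Samples with the same replicate number did not deviate together (r from -0.07 to 0.12 over genes, 1 of 6 pairs of groups above 0.1), so the numbers were not taken as pairs.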

Additional observations from a re-analysis of the deposited data

Results flagged for a closer look

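Bhlhe40 and Per2 were flagged because both anti-IL6R libraries lay to one side of both IgG libraries in scramble cells and to the other side in shMCT-1 cells, although no antibody effect on either gene passed the test in either line. How many of the 12704 tested genes showed the same pattern was not counted. The pattern alone therefore does not set these genes apart. Bhlhe40 was at 102 and 103 CPM in scramble + IgG against 99.6 and 98.1 CPM in scramble + anti-IL6R, and at 152 and 137 CPM in shMCT-1 + IgG against 173 and 163 CPM in shMCT-1 + anti-IL6R. The difference between the responses was 0.28 on the log2 scale (unadjusted p = 0.0398, adjusted p = 0.9999). Per2 was at 7.41 and 6.72 CPM against 7.68 and 7.53 CPM in scramble, and at 4.71 and 4.01 CPM against 3.02 and 3.73 CPM in shMCT-1 cells. Its difference was -0.46 on the log2 scale (unadjusted p = 0.0953, adjusted p = 0.9999), and -0.30 without shMCT-1 + anti-IL6R replicate 1. Neither difference passed the correction over all tested genes by edgeR's quasi-likelihood test.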

How the results depend on the processing

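Of 885 recomputed log2 fold changes of the 10 genes, 835 kept their direction and side of the threshold, 36 changed direction (in 15 of 50 results, none above 0.23 in size), 10 lost a call and 2 gained one. The untested shMCT-1 values of Bhlhe41 went from -3.04 to -2.84 and from -3.11 to -2.88 with the length and GC correction. The 6 calls of the 9 genes other than Bhlhe41 ranged from 3 to 6 when a library was left out, within IgG and within anti-IL6R, and the 16 calls of further clock genes within anti-IL6R from 11 to 19. An unadjusted p gave 1 call, Bhlhe40, under anti-IL6R in shMCT-1 cells and 1 in the interaction. With the replicate number as a block, which does not pair the samples, the calls among the 9 genes were 6 and 6, with 7035 and 7017 calls over all genes against 6912 and 6894.

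Directions turned when a library was left out, over ranges of -0.18 to 0.026 (Bhlhe41), -0.10 to 0.22 (Per1), -0.17 to 0.18 (Cry1), -0.14 to 0.058 (Cry2) and -0.62 to 0.19 (Dbp) in the interaction. They also turned for anti-IL6R in shMCT-1 cells, -0.18 to 0.15 (Per1) and -0.18 to 0.018 (Per3), and in scramble cells, -0.081 to 0.23 (Per3), -0.14 to 0.21 (Cry1), -0.11 to 0.065 (Nr1d1) and -0.084 to 0.023 (Nr1d2). For shMCT-1 the ranges were -0.23 to 0.12 (Cry1) and -0.18 to 0.0032 (Nr1d1) within IgG and -0.088 to 0.0012 (Cry1) within anti-IL6R. Thinning turned Per3 (-0.020), Cry1 (-0.040) and Nr1d1 (0.037) for anti-IL6R in scramble cells and Cry1 for shMCT-1 within anti-IL6R (0.0068). RLE size factors (0.0002) and no filter (0.0073) turned Per1 for anti-IL6R in shMCT-1 cells. The length and GC correction turned Cry1 (-0.0046) and Nr1d2 (0.022) for anti-IL6R in scramble cells, Cry2 in the interaction (0.012) and Nr1d1 for shMCT-1 within anti-IL6R (-0.042). The cause was not tested. Without a filter on low counts, 64, 133 and 97 of all genes were called for the antibody in scramble cells, in shMCT-1 cells and in the interaction, where the main test called 0. With 2 libraries per group, p-values rest on a spread between libraries that the 4 groups share and that is drawn toward that of other genes. The groups differed in this spread. The chi-square per degree of freedom between the 2 libraries was 25.8 in scramble + IgG and 4.06 in scramble + anti-IL6R. It was 9.47 in shMCT-1 + IgG and 18.2 in shMCT-1 + anti-IL6R. The values of Dbp rest on 11 to 54 counts per library.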

Other observations

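The 5 genes whose centred log2 profile over the 8 libraries lay closest to that of Bhlhe41, among 12011 tested genes with a mean of at least 1 CPM, were Arrdc3, Shank2, Bst1, Pik3r5 and Cyp1b1. Their root mean square distances ran from 0.154 for Arrdc3 to 0.20 for Cyp1b1 on the log2 scale, and they lie on chromosomes 13, 7, 5, 11 and 17, none on that of Bhlhe41. Arrdc3, an arrestin domain gene, had a mean of 49.4 CPM in scramble and 6.72 CPM in shMCT-1 libraries. Cyp1b1, a cytochrome P450 gene, had means of 20.5 and 2.35 CPM. The 8 libraries fall into 2 lines, so this likeness describes mainly the size of the difference between them.

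The 5 genes closest to Dbp were A330069E16Rik, Tmem151a, Eml6, Gm6710 and Hes1, with distances of 0.168 to 0.239. Of these, Hes1, a repressor in Notch signaling of the basic helix-loop-helix family, was the only abundant one, at means of 136 CPM in scramble and 79.8 CPM in shMCT-1 libraries, and the other 4 had means of 0.803 to 1.90 CPM.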
